A study of Mus musculus with 10 samples.

Results

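The genes described here are 9 members of the Myc network other than Myc itself, read by messenger RNA level in mouse embryonic fibroblasts at the start of reprogramming. They are the Myc paralogs Mycn and Mycl, the shared dimer partner Max, the antagonists Mxd1, Mxd3, Mxd4, Mxi1 and Mnt, and the Max-like partner Mlx. They were chosen with earlier results of these data known. Their probe sets were then taken by symbol from the platform's gene table, with no use of their values. All 9 genes were found, with 23 of the 45037 probe sets tested and 9 of 18193 named genes. Mxd4 had 4 probe sets, Mycn, Mycl, Mxd1 and Mxd3 had 3 each, Mxi1, Mnt and Mlx had 2 each, and Max had 1. A probe set is a group of short array probes that together read a transcript.

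All cells were secondary fibroblasts of a 129/SvJ x C57/B6 hybrid strain, a kind of line known to carry doxycycline-inducible transgenes of Pou5f1, Sox2, Klf4 and Myc. The control was uninduced and held in medium with 0.5% serum for 96 h. The other 4 groups received doxycycline (2 ug/ul in the labels) and 15% serum, again for 96 h. They were labelled by the average number of divisions, as 0, 1, 2, or 3 or more. The labels do not state how these were parted, and for 3 or more divisions the array titles give the induction alone. Each of the 5 groups had 2 arrays of total RNA. The labels call them biological replicates for the control and for 3 or more divisions, and replicates for the rest, with no word on separate animals or cultures. The p-values measure the spread between such arrays, which may be technical in part. An earlier set of 4 arrays held the control with the cohort of 3 or more divisions, and a later set of 6 held the other cohorts. For the cohorts of the later set, set and group cannot be told apart in comparisons with the control. Within the earlier set, doxycycline, serum and division all differ between its groups.

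Myc, Mycn and Mycl are basic helix-loop-helix leucine zipper proteins that bind DNA only as dimers with Max, at E-box sites, and activate genes of growth and metabolism. Mxd proteins, Mxi1 and Mnt compete for Max and bind the same sites with Sin3 corepressors, so that Max sits at the centre of opposed dimers. Mlx pairs with the glucose-responsive proteins MondoA and ChREBP, and also with Mnt and some Mxd proteins. Mxd genes are generally known for expression in cells that leave the cycle, Mxd3 for expression in dividing cells, and Mnt and Max for expression in most cell types.

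Of the network, Mxi1 rose most clearly, Mnt and Mlx rose by small amounts that depended on the arrays used, and the paralogs, Max and the Mxd genes did not pass the test. In the cohort of 3 or more divisions against the control, 4 of 23 probe sets passed (limma, adjusted p under 0.05), all of them higher. They were both probe sets of Mxi1, 1 of 2 of Mnt and 1 of 2 of Mlx. This is a share of 17.4%, near the 20.7% of all probe sets that passed in the same comparison, so the count does not set these genes apart from the rest of the array. By the brightest probe set of each gene, 2 of 9 members passed, against 26.1% of all named genes. The median log2 change of the 23 probe sets was 0.19, against 0.0047 over all probe sets, and 15 of 23 had groups whose arrays did not overlap (65.2%, against 59.1% of all probe sets). The other 19 probe sets had log2 changes of -0.32 to 0.35, and each of their 95% intervals lay within a doubling or a halving.

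Myc itself read 7.30 and 8.59 in the control and 10.71 and 11.29 in that cohort (log2 intensity), a log2 change of 3.06 ± 0.46 (SE; limma adjusted p = 0.00259). After 0, 1 and 2 divisions Myc stood 1.66, 1.55 and 1.79 above the control. These did not pass (limma adjusted p = 0.264, 0.209 and 0.0771) and did pass with a block for the replicate number (0.0168, 0.0129 and 0.00285). Against 0 divisions the cohort of 3 or more was higher by 1.40 (adjusted p = 0.106, and 0.00492 with the block). The sources used here do not say whether this Myc probe set reads the transgene, the gene of the cell or both.

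**Figure D1:**
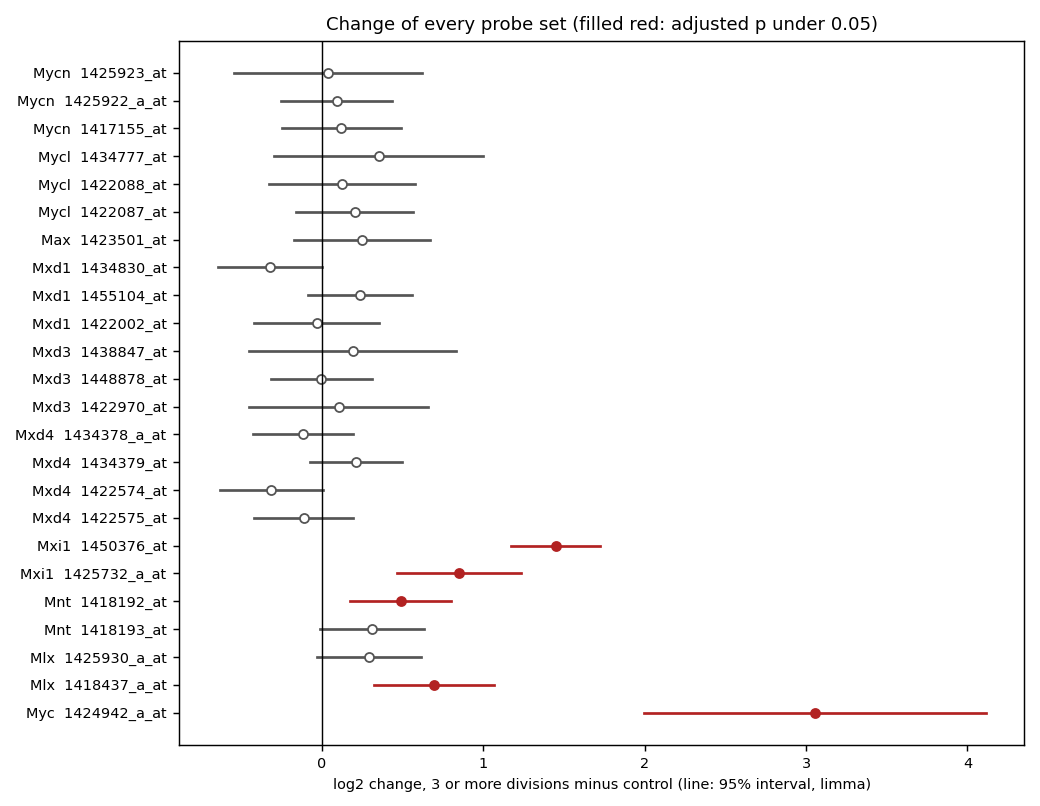
The log2 change in the cohort of 3 or more divisions against the control (x axis) for each of the 23 member probe sets and for Myc (y axis), as points with 95% intervals from limma and 2 arrays per group. Filled red points passed at an adjusted p under 0.05. Both Mxi1 probe sets lie above 0, at 1.45 and 0.85, and the open points lie between -0.32 and 0.35.

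Mxi1, an Mxd family repressor that competes with Myc for Max, was the member with the clearest rise. Its brighter probe set, 1450376_at, lay higher on every induced array than on either control array. It read 8.70 and 8.88 in the control, 9.44 and 9.40 after 0 divisions, 9.46 and 9.57 after 1, 9.58 and 9.71 after 2, and 10.17 and 10.31 after 3 or more (log2 intensity, replicates 1 and 2). The group means were thus ordered by the labelled number of divisions, with the cohorts of 0, 1 and 2 divisions close together and the cohort of 3 or more apart from them. Within the later set this order did not pass a test. The slope over 0, 1 and 2 divisions was 0.11 per division (limma adjusted p = 0.697). Between 2 and 0 divisions the difference was 0.22 (adjusted p = 0.799). Against the control the cohort of 3 or more divisions was higher by 1.45 ± 0.12 on the log2 scale (SE, 2.73-fold, limma adjusted p = 0.000303), a change larger in size than 94.8% of all probe sets. The call stood in each of the other settings tried, among them the omission of each single array.

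The differences after 2 divisions (0.85 ± 0.12, adjusted p = 0.0122) and after 1 division (0.72 ± 0.12, adjusted p = 0.0485) passed as well, as the only member probe sets to do so in these comparisons. There 4.15% and 0.673% of all probe sets passed, and 1 of 23 members in each (4.35%). These 2 calls rested on more than 1 array. Without replicate 1 of the control, replicate 1 of the cohort or replicate 2 of the cohort, the adjusted p after 2 divisions was 0.0563, 0.0736 and 0.0532, and after 1 division the call was lost without any single array of the 10 (adjusted p = 0.077 to 0.228). After 0 divisions Mxi1 stood 0.63 ± 0.12 above the control, which did not pass (adjusted p = 0.107) and did pass with the replicate block (adjusted p = 0.0326). These comparisons all use the same control arrays.

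Cells of 3 or more divisions also exceeded cells of 0 divisions in Mxi1, by 0.82 ± 0.12 (1.77-fold, adjusted p = 0.00786). That comparison crosses the 2 registered sets. There 9.29% of all probe sets passed, 56.5% of them higher (67.0% under median centring of the arrays), and 2 of 23 members did (8.70%), Mxi1 and Mlx. The Mxi1 difference lost its call without replicate 2 of 3 or more divisions (adjusted p = 0.0757) or without replicate 1 or 2 of the cohort of 0 divisions (adjusted p = 0.0564 and 0.0501).

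The dimmer Mxi1 probe set, 1425732_a_at, read 6.82 and 6.97 in the control and 7.73 and 7.76 after 3 or more divisions. The change was 0.85 ± 0.17 (adjusted p = 0.00867), smaller than that of the brighter probe set, and was lost without control replicate 1 (adjusted p = 0.0541) or replicate 2 of the cohort (adjusted p = 0.061). In between it read 7.43 and 7.41 after 0 divisions, 6.95 and 7.48 after 1 and 7.37 and 7.29 after 2, so it did not repeat the order of the group means. Over the 10 arrays the probe sets of Mxi1 correlated at r = 0.883, a description of arrays that share their groups. A sign of RNA quality differed between groups too. For Actb, the 3-prime signal exceeded the 5-prime signal by 0.279 and 0.302 in the control and 0.454 and 0.451 after 3 or more divisions (log2). The excess was 0.334 and 0.272 after 0 divisions, 0.424 and 0.315 after 1, and 0.423 and 0.486 after 2. For Gapdh it was 0.049 and 0.0281 in the control and 0.269 and 0.252 after 3 or more divisions. On the other arrays it was 0.104 to 0.253. The part of RNA quality in the result was not tested.

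Mnt, the most widely expressed Max-binding repressor, rose a little. Its brighter probe set, 1418192_at, read 9.50 and 9.63 in the control, 9.87 and 9.72 after 0 divisions, 9.92 and 9.66 after 1, 9.81 and 9.99 after 2, and 10.09 and 10.01 after 3 or more (log2 intensity). All 8 induced arrays lay above both control arrays, the cohorts of 0, 1 and 2 divisions overlapped, and that of 3 or more lay just above them. The change in the cohort of 3 or more divisions was 0.49 ± 0.14 (1.40-fold, limma adjusted p = 0.0378). The call was lost without either array of the control (adjusted p = 0.17 without replicate 1 and 0.0733 without replicate 2), of that cohort (0.151 and 0.121) or of the cohort of 0 divisions (0.0538 for each). It was also lost with the arrays of those 2 groups alone (0.0672). The other Mnt probe set, 1418193_at, read 5.34 and 5.62 in the control and 5.83 and 5.75 in the cohort, and did not pass (0.31 ± 0.14, adjusted p = 0.171).

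Mlx, the partner of MondoA and ChREBP, was highest in the cohort of 3 or more divisions by both probe sets. Its dimmer probe set, 1418437_a_at, read 6.30 and 6.73 in the control, 6.52 and 6.62 after 0 divisions, 6.45 and 6.73 after 1, 6.72 and 6.71 after 2, and 7.21 on both arrays after 3 or more. The arrays of the control and of 1 division spanned those of 0 and 2 divisions, and the cohort of 3 or more lay above them all. The change from the control was 0.70 ± 0.16 (1.62-fold, limma adjusted p = 0.018), and from 0 divisions 0.64 ± 0.16 (adjusted p = 0.0467). Against the control the call was lost without control replicate 1 (change 0.48, adjusted p = 0.0978), without replicate 1 or 2 of the cohort (0.0775 and 0.095) and with the arrays of those 2 groups alone (0.0596). Against 0 divisions it was lost without either array of the cohorts of 3 or more, 0 or 2 divisions (adjusted p = 0.0732 to 0.226). The brighter Mlx probe set, 1425930_a_at, read 7.45 and 7.72 in the control and 7.88 for each array of the cohort, where it did not pass (0.29 ± 0.14, adjusted p = 0.194). Against 0 divisions it stood 0.47 ± 0.14 higher, which did not pass (adjusted p = 0.0766) and passed with the replicate block (adjusted p = 0.0498).

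**Figure D2:**
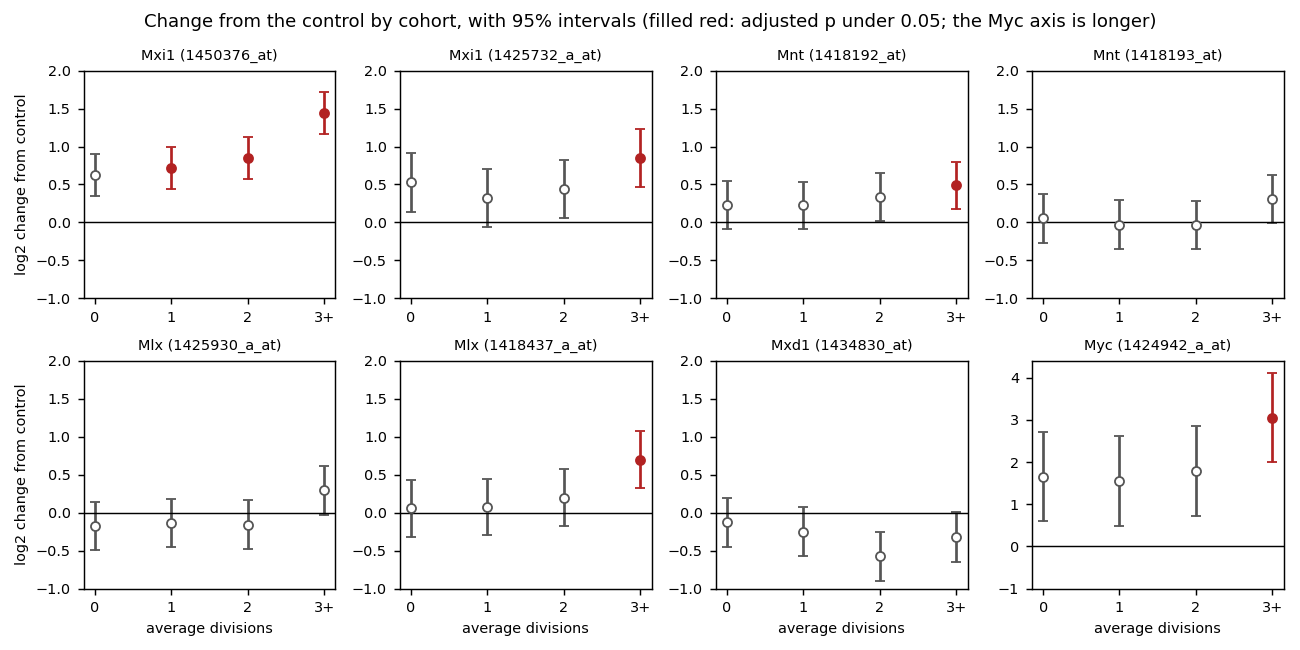
The log2 change from the control (y axis) in the cohorts of 0, 1, 2 and 3 or more divisions (x axis) for the Mxi1, Mnt and Mlx probe sets, the brightest Mxd1 probe set and Myc, with 95% intervals from limma. Filled red points passed at an adjusted p under 0.05, and the 4 cohorts share the control arrays. The brighter Mxi1 probe set goes from 0.63 to 1.45, and both Mlx probe sets are highest after 3 or more divisions.

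The promoters of the genes with a call are printed below, with that of Max, which had none. They are shown because the network's dimers bind the E-box, spelled CACGTG, which reads the same on both strands. Sequences are those of RefSeq on GRCm38.p6, where all 9 members had a start site, 11 in all. A window of 250 bases before to 50 after each start was searched. The E-box was found in 4 of the 11 windows, those of Mnt, Mlx, Max and Mxd4, and in 7.15% of all 32851 windows of that length. It lies 123 bases before the start in Mnt, 40 in Mlx, 219 in Mxd4, and across the start in Max, where it begins 3 bases before it. None of the 3 Mxi1 windows holds these letters, which says nothing of the binding of a factor there. Of Mxi1, 2 of its 3 starts are printed. The runs below give 150 bases before to 10 after the start, 5′ to 3′ in the direction of the gene, with the E-box in capitals.
Mnt, chr11:74830774-74830933, + strand: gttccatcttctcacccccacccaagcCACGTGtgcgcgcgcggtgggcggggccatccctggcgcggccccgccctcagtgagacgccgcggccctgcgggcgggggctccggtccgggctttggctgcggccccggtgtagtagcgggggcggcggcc
Mlx, chr11:101087140-101087299, + strand: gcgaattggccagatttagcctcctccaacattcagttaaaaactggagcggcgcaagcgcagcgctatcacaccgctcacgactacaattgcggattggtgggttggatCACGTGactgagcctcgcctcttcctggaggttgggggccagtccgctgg
Max, chr12:76962239-76962398, - strand: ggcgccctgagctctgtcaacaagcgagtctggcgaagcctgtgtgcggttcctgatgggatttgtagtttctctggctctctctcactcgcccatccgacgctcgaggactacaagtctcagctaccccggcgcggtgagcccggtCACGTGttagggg
Mxi1, upstream start, chr19:53310356-53310515, + strand: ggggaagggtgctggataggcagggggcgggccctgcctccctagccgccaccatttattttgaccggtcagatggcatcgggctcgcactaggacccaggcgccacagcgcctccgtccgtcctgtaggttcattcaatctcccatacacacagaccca
Mxi1, next start, chr19:53329263-53329422, + strand: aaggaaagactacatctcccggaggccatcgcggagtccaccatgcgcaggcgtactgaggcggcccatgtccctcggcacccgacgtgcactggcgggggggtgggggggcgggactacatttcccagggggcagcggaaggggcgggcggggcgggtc

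Of the paralogs of Myc, neither passed in any comparison. Mycl, the L-Myc gene, was read by probe sets with means of 4.44, 3.39 and 3.33 over the 10 arrays, all under the median of all probe sets (5.05). No detection calls were given, so whether it lay above background is not known. Its brightest probe set, 1434777_at, read 4.35 and 4.17 in the control and 4.56 and 4.68 after 3 or more divisions, and spread from 4.05 to 4.98 within the cohort of 1 division. The change of 0.35 ± 0.28 did not pass (limma adjusted p = 0.453), with a 95% interval of -0.29 to 1.00.

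Mycn, the N-Myc gene, read 6.05 and 6.67 in the control by its brightest probe set, 1425923_at. It read 5.97 and 6.52 after 0 divisions, 6.32 and 6.12 after 1, 6.14 and 6.52 after 2, and 6.46 and 6.33 after 3 or more. Each induced cohort overlapped with the control, while the arrays of 3 or more divisions lay just above those of 1 division. The change of 0.04 ± 0.25 after 3 or more divisions did not pass (limma adjusted p = 0.946), with a 95% interval of -0.54 to 0.62. The other Mycn probe sets lay under the median of the array, at means of 4.19 and 3.64, with changes of 0.09 and 0.12.

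Max, the obligate partner of Myc, had a single probe set, 1423501_at. It read 7.95 and 7.89 in the control, 7.80 and 8.13 after 0 divisions, 7.57 and 8.08 after 1, 7.78 and 7.79 after 2, and 8.10 and 8.24 after 3 or more. The cohort of 3 or more divisions lay above the control arrays and overlapped with those of 0 divisions. The change from the control was 0.25 ± 0.18 and did not pass (limma adjusted p = 0.408), with a 95% interval of -0.17 to 0.67. A rise of over 1.59-fold is outside that interval, while Myc had a measured change of 8.32-fold with a lower bound of 3.99-fold. The log2 change of Myc was 2.41 without control replicate 1 and 3.70 without control replicate 2, in place of 3.06, and it passed in both.

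Among the Mxd genes, Mxd1, the founding Mad repressor, had the only decrease that passed in any setting. Its brightest probe set, 1434830_at, read 7.65 and 7.63 in the control, 7.68 and 7.35 after 0 divisions, 7.39 and 7.38 after 1, 6.96 and 7.17 after 2, and 7.37 and 7.26 after 3 or more. The cohort of 2 divisions was the lowest, and the arrays of 1, 2 and 3 or more divisions lay under the control. After 2 divisions the difference was -0.57 ± 0.14 and did not pass (limma adjusted p = 0.0653). It did pass with the replicate block (adjusted p = 0.0332), and also among probe sets above the median alone (adjusted p = 0.0483). After 3 or more divisions it was -0.32 ± 0.14 (adjusted p = 0.158). The other Mxd1 probe sets did not share this pattern. 1455104_at stood 0.34 ± 0.14 above the control after 2 divisions (adjusted p = 0.257) and correlated with 1434830_at at r = -0.695 over the 10 arrays, and 1422002_at read 4.56 and 4.43 in the control and 4.32 and 4.42 after 2 divisions.

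Mxd3, known for expression in S phase, passed in none of the comparisons. Its brightest probe set, 1438847_at, read 6.43 and 6.13 in the control, 7.00 and 6.45 after 0 divisions, 6.48 and 6.09 after 1, 7.07 and 6.34 after 2, and 6.36 and 6.59 after 3 or more. Replicate 1 was the higher array in each group other than that of 3 or more divisions, by up to 0.73, which exceeded the difference of 0.19 ± 0.28 from the control after 3 or more divisions (limma adjusted p = 0.71). A second probe set, 1448878_at, read 6.05 and 5.91 in the control, 6.59 and 6.26 after 1 division, and 6.04 and 5.92 after 3 or more. Its difference of 0.44 ± 0.14 after 1 division did not pass (adjusted p = 0.226). Of 9 proliferation genes 8 passed in the comparison of 3 or more divisions with the control, where this probe set had a change of -0.0029.

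Mxd4, a repressor of resting and differentiating cells, was read brightly by its brightest probe set, 1434378_a_at. This read 11.16 on both control arrays, 11.22 and 11.29 after 0 divisions, 11.45 and 11.21 after 1, 11.26 and 11.40 after 2, and 11.16 and 10.93 after 3 or more. All values lay within a range of 0.52, and the change of -0.12 ± 0.13 after 3 or more divisions did not pass (limma adjusted p = 0.623). The other 3 probe sets had changes of 0.21, -0.31 and -0.11, of which none passed (adjusted p = 0.164 to 0.631). Probe sets of Mxd4 thus stood on both sides of 0, each with an interval that includes 0.

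**Figure D3:**
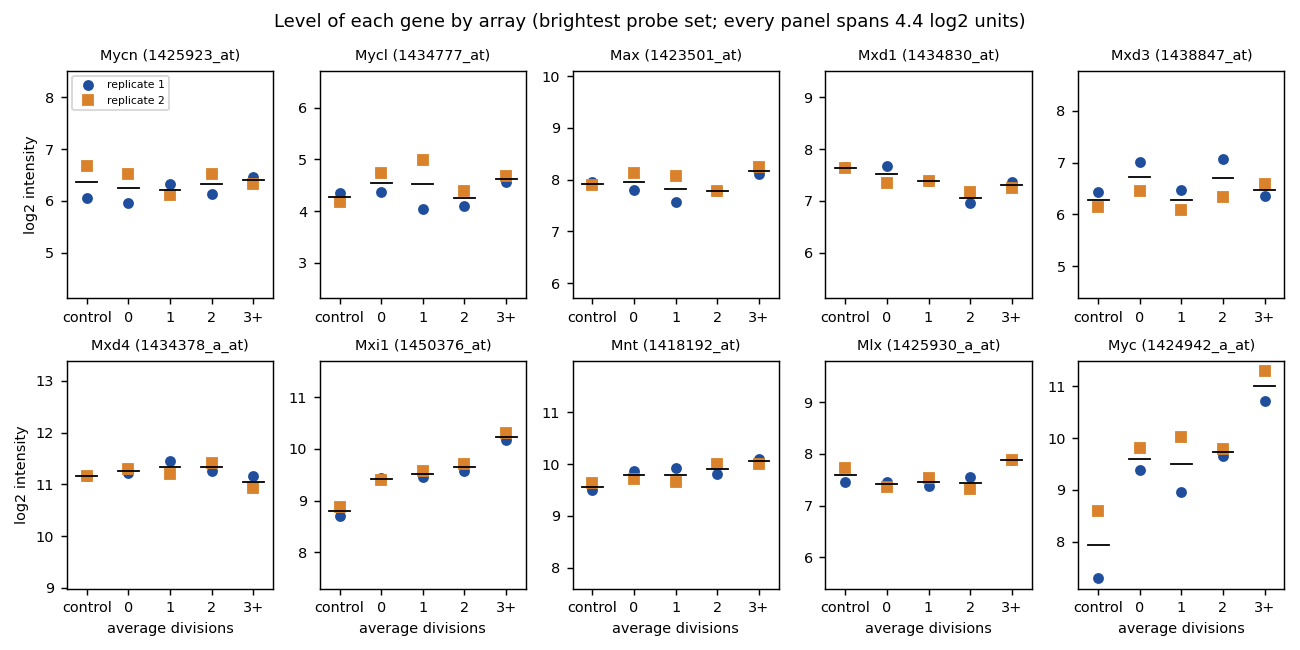
The log2 intensity (y axis) of the brightest probe set of each member and of Myc on each of the 10 arrays, by group (x axis: control, then the cohorts by average divisions). Circles are replicate 1, squares replicate 2 and bars group means, and every panel spans the same number of log2 units, so that slopes compare between panels while levels of different probe sets do not. Mxi1 goes from 8.70 to 10.31, and Mxd4 stays between 10.93 and 11.45.

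Within the induced cells of the later set, where serum, doxycycline and set are shared, no member passed the test for division. Of the 23 probe sets 0 passed between 2 and 0 divisions, where 22 of all probe sets did (0.0488%), and 0 passed in the slope over 0, 1 and 2 divisions, where 0 of all 45037 did (0%). In these limma fits 3217 and 3602 of all probe sets, and 3 members each, had an unadjusted p under 0.05, and with the replicate block 389 and 631 of all probe sets passed and 0 members. The dim Mycl probe set 1422088_at had a slope of 0.31 ± 0.10 per division (adjusted p = 0.494), which was 0.15 without replicate 2 of 2 divisions and 0.022 with a floor of 16. That of the brightest Mxd1 probe set was -0.22 ± 0.08 (adjusted p = 0.503).

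In the cells labelled with 0 divisions, 0 of 23 member probe sets passed against the control, where 55 of all probe sets did (0.122%). At an unadjusted p under 0.05 limma counted 4358 of all probe sets and 2 members, the 2 probe sets of Mxi1. With the replicate block 819 of all probe sets passed, and 1 member, Mxi1 (1450376_at). Groups did not overlap for 12 of 23 members (52.2%), against 37.7% of all probe sets.

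The wider network was described through lists that were chosen with earlier results of these data known, by the brightest probe set of each gene. In the cohort of 3 or more divisions 26.1% of all named genes passed, with a median log2 change of 0.0236, and 35.7% passed with the replicate block, the background for the blocked counts. Of the 6 other genes of the network, Myc and Bin1 rose and 0 fell. Bin1, which encodes an adaptor that binds Myc, changed by 0.47 ± 0.14 (limma adjusted p = 0.0493). The count was 1 without either array of the control or of the cohorts of 0, 1 and 3 or more divisions. That count was also 1 with a floor of 16, with a variance trend in the fit and with the compared arrays alone. Mlxip, the MondoA gene and a partner of Mlx, read 8.30 and 8.42 in the control and 8.11 and 8.21 in the cohort. It did not pass there, nor did Mga (-0.09 ± 0.20) or Mlxipl (0.02 ± 0.20). Mlxip was lowest after 2 divisions, at 7.92 and 7.85, where it did not pass either.

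Among cofactors, 1 of 8 measured corepressor genes rose and 1 fell, with a median change of 0.19. Sap30, a subunit of the Sin3 histone deacetylase complex, rose from 7.18 and 7.24 to 9.59 and 9.69 (2.44 ± 0.15, limma adjusted p = 0.000161), and Sin3b, a scaffold that Mxd proteins bind, fell by 0.51 (adjusted p = 0.0271). The count of calls was 1, a rise, without either array of the control or of the cohort. That count was also 1, a rise, with the compared arrays alone. Sin3a (0.18 ± 0.16), Hdac1 (0.20 ± 0.17) and Hdac2 (0.15 ± 0.13) did not pass. Of 11 measured coactivator genes 5 rose and 0 fell, with a median of 0.24, led by the helicase gene Ruvbl2 (2.04 ± 0.23), the acetyltransferase gene Kat2a (1.48 ± 0.14) and Ruvbl1 (1.38 ± 0.14). Of 7 measured genes of Myc protein turnover 2 rose and 0 fell (4 and 0 with the replicate block or with median centring). These were Skp2, a ubiquitin ligase subunit (1.67 ± 0.18), and the deubiquitinase gene Usp36 (1.14 ± 0.16).

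Genes known as targets of Myc were described as those it induces and those it represses. Of 21 measured genes known to be induced by Myc 18 rose and 0 fell in the cohort of 3 or more divisions, with a median of 1.32, led by the transferrin receptor gene Tfrc (3.88 ± 0.38) and the nucleolar genes Nop56 (2.51 ± 0.36) and Fbl (2.25 ± 0.14). With the replicate block 20 rose. After 0 divisions 1 of the 21 passed, Fbl (1.19 ± 0.14, limma adjusted p = 0.0393), and the median was 0.61, where 0.154% of all named genes passed. With the replicate block 10 of the 21 passed after 0 divisions, where 2.67% of all named genes did. Of 7 genes known to be repressed by Myc 2 fell and 0 rose after 3 or more divisions, with a median of -0.77. They were the PDGF receptor gene Pdgfrb (-1.96 ± 0.17) and the stress gene Gadd45a (-0.98 ± 0.27), and the count was 1 without either array of the cohorts of 0, 1 and 3 or more divisions. This count was also 1 without quantile normalization, with median centring, with a floor of 16 and with the compared arrays alone. With the replicate block 4 fell and 1 rose, the latter Cdkn1a (0.61, adjusted p = 0.019 with the block).

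Genes known as targets of MondoA or ChREBP with Mlx moved in both directions, 3 of 7 up and 1 down, with a median of 0.37. Txnip, a glucose-responsive inhibitor of thioredoxin and the best known MondoA target, read 11.27 and 10.58 in the control and 9.61 and 8.49 after 3 or more divisions, a change of -1.87 ± 0.51 (limma adjusted p = 0.0331). The fatty acid synthesis genes Fasn (1.41 ± 0.20) and Acaca (0.76 ± 0.15) rose. Without control replicate 1 the calls were 2 rises, and without replicate 2 of the cohort 1 rise. With the replicate block the falls were 2, the other being Arrdc4 (adjusted p = 0.0418 with the block).

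Of 9 measured proliferation genes 8 rose and 0 fell, with a median of 1.87, including Birc5 (2.04 ± 0.24), Aurkb (1.98 ± 0.19) and Ccna2 (1.94 ± 0.15), and with the replicate block 9 rose. Of 9 genes known from resting cells 4 fell and 0 rose, with a median of -0.75, led by the inhibitor gene Cdkn1c (-4.70 ± 0.65), Gas6 (-2.91 ± 0.16) and Ccng2 (-1.17 ± 0.16). With the replicate block 7 fell and 1 rose, the latter Foxo3 (adjusted p = 0.0464 with the block). The proliferation genes were already higher in cells labelled with 0 divisions, where all 9 stood above the control with a median of 1.04. There 0 of them passed, where 0.154% of all named genes did. With the replicate block 5 passed, where 2.67% of all named genes did.

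**Figure D4:**
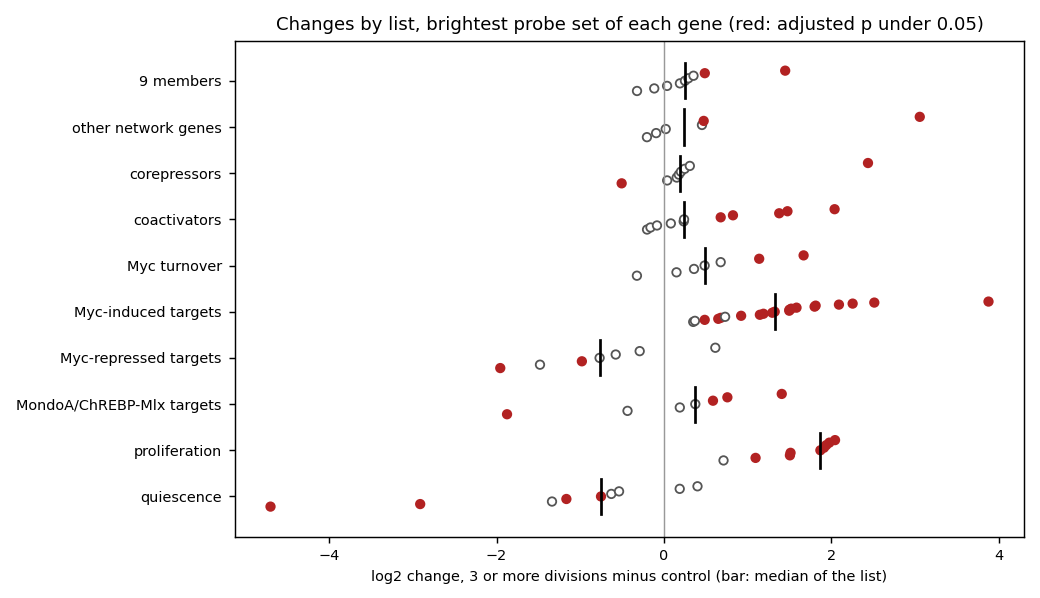
The log2 change in the cohort of 3 or more divisions against the control (x axis) for the brightest probe set of each member gene and of each gene of the related lists (y axis), with red points for an adjusted p under 0.05 in limma and bars at the list medians. The members lie between -0.32 and 1.45, and the genes known to be induced by Myc have a median of 1.32.

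The genes whose levels were most like those of Mxi1 over the 10 arrays were Mrpl45, of the mitochondrial ribosome (Pearson r = 0.993), Ifrd2 (0.993) and Cluh (0.991). The search covered 9095 named genes whose brightest probe set averaged above the median of the brightest probe sets of all named genes. Of these 953 (10.5%) had an r over 0.9 with Mxi1, so its pattern was a common one in these arrays. For Mnt they were Ythdc1 (0.939), Atad2 (0.926) and Hmox1 (0.925), and 12 genes had an r over 0.9. Mxi1 and Myc correlated at r = 0.948. All these values describe 10 arrays that share 5 groups, and carry no test.

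The arrays had near-equal medians of 31.4 to 33.95 in linear intensity, and no pair of arrays held the same values. The fibroblast label was checked by markers. The mesenchymal gene Vim read 14.20 to 14.40 on all arrays, while the mean of 8 fibroblast markers went from 13.18 and 13.08 in the control to 11.89 and 11.60 after 3 or more divisions, where 5 fell and 0 rose (6 fell with the replicate block). The mean of 5 keratinocyte markers went from 5.19 and 5.04 to 6.47 and 6.38, while their median change was 0.19. Krt14 had by far the largest change (6.04 ± 0.49), and Krt1 was called as well (0.91 ± 0.22). Krt5 (-0.02, at 5.05 and 5.31 after 3 or more divisions), Krt10 (0.19) and Trp63 (-0.59) did not pass. Of 7 macrophage markers 1 rose after 3 or more divisions, Cd68 (log2 change 3.54 ± 0.37), and 1 fell, Lyz2 (-1.39 ± 0.26). Ptprc read 3.47 to 4.12 on all arrays. Of 5 endothelial markers 1 rose, Tek (2.44 ± 0.26), and 2 fell, Kdr (-0.55 ± 0.15) and Flt1 (-2.03 ± 0.61). Pecam1 read 3.35 to 3.77 on all arrays. Neural markers had 2 rises among 5, Tubb3 (3.33 ± 0.79) and Elavl3 (0.40 ± 0.12), and 1 fall, Map2 (-2.02 ± 0.31). Skeletal muscle markers had 0 calls of 4. Adipocyte markers had 0 rises and 1 fall among 3, Lpl (-4.77 ± 0.43), and 2 falls with the replicate block. The part of such shifts in cell state or makeup in the changes of Mxi1, Mnt and Mlx was not tested. In bulk RNA, fewer cells of a type and less RNA per cell cannot be told apart.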

How the data were processed

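Total RNA was read on 10 Affymetrix mouse arrays, 2 in each of 5 groups taken from the labels. Per the deposited table, the values are intensity on a linear scale for 45101 probe sets, from 5.704 to 26572. RMA is named for 4 of the arrays per the submitters' processing notes, while for the other 6 the sources used here name no tool. Values were floored at 1 (0 values changed), put on the log2 scale and quantile normalized, and 64 control probe sets were left out. The gene table named 34945 probe sets with 1 gene, and 10092 were tested unnamed. Tests used limma 3.58.1 in R 4.3.3 with lmFit and eBayes over 5 groups (5 residual degrees of freedom; 4 for the slope), two-sided, with Benjamini-Hochberg adjustment over all 45037 probe sets and a threshold of 0.05. Intervals are at 95%. The fits were tested on simulated data in which arrays varied independently of each other. The joint deviation of same-numbered arrays described below was not simulated, so that check does not cover it.

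The members and lists were chosen with earlier results of these data known. Named by rule are all members, Myc, and up to 3 called genes of each related list with the largest changes; the other list and marker genes named were chosen after their values were seen. The most alike genes are the 3 with the highest r for each member whose brightest probe set was called. Same-numbered arrays deviated together in all 10 pairs of groups (r = 0.435 to 0.83), from the data and not the labels. The fit with the block is quoted where a call of a member or of Myc differs. For the lists it is quoted where the count differs in 3 or more divisions against the control. Alternatives changed the scale, floor, filter, unit, variance model, arrays and block.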

Additional observations from a re-analysis of the deposited data

Results flagged for a closer look

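The difference of Mxi1 (1450376_at) from the control was larger after 3 or more divisions than after 0, by 0.821 on the log2 scale (limma adjusted p = 0.00786), higher in 2 of 2 arrays. The difference of Mlx (1418437_a_at) was larger by 0.638 (adjusted p = 0.0467), again higher in 2 of 2 arrays. Both compare arrays of the earlier and the later registered set, which cannot be told apart from the groups, and both lost their call when some single arrays were left out.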

How the results depend on the processing

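The count of member probe sets called in the cohort of 3 or more divisions was 2, in place of 4, with 1 probe set per gene and with the arrays of the compared groups alone, and 1 to 4 without single arrays. After 2 divisions it was 2 with the filter on dim probe sets and with the replicate block, 0 with the compared arrays alone, and 0 to 1 without single arrays, in place of 1. After 1 division it was 0 with a floor of 16, with the compared arrays alone and without each single array (0 to 0), in place of 1. After 0 divisions it was 1 with the replicate block, in place of 0, where 1.82% of all probe sets passed. For 3 or more against 0 divisions it was 1, in place of 2, with a floor of 16, with 1 probe set per gene and with a variance trend, 3 with arrays centred on their medians and with the replicate block, and 0 to 2 without single arrays. With 1 probe set per gene only 9 member probe sets were tested, and with the filter on dim probe sets 15, in place of 23. The share of all tested probe sets that passed moved too. With the compared arrays alone it was 17%, 0.302% and 0% after 3 or more, 2 and 1 divisions, so no member could pass after 1. After 3 or more divisions 1 probe set per gene gave 27.6%. After 2 divisions the filter gave 9.55% and the block 10.7%. After 1 division the floor of 16 gave 0.209%. For 3 or more against 0 divisions the floor gave 5.85%, 1 probe set per gene 13.9% and the variance trend 9.17%. Median centring gave 10.3% there and the block 18.4%. No call of a member turned its direction in any setting. Over single probe sets of members and Myc, 2700 of the results in other settings kept their side of the threshold, 40 lost a call and 10 gained one. Most of the 2700 were not called in the main fit, so this count says little of how firm the calls were. By call, the share lost ran widely. For Mxi1 (1450376_at) the call after 1 division was lost in 12 of 18 settings, and that after 3 or more divisions in 0 of 18.

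Over all probe sets the calls in the cohort of 3 or more divisions went from 9304 to 4410 without its replicate 2 and 13203 with the replicate block. After 2 divisions they went from 1871 to 138 without its replicate 1 and 4834 with the block, after 1 division from 303 to 9 without its replicate 2 and 1833, and after 0 divisions from 55 to 1 without its replicate 1 and 819. For 3 or more against 0 divisions they went from 4184 to 476 without replicate 2 of 3 or more divisions and 8300 with the block, and for 2 against 0 divisions from 22 to 0 and 389. A fit without 1 array assumes that the lone array of its group varies like the others. Dim probe sets, such as those of Mycl, have no detection call, and differences there are compressed.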

Other observations

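Probe sets of a gene differed in how they followed the groups. Over the 10 arrays the pairs of Mxi1 and Mlx correlated at r = 0.883 and 0.823 and that of Mnt at 0.491. The pairs of Mxd4 ran from -0.237 to 0.459, those of Mxd3 from 0.196 to 0.772, those of Mycn from -0.397 to 0.637 and those of Mycl from -0.185 to 0.239. Replicate 2 exceeded replicate 1 in all 5 groups for Myc, by 0.13 to 1.29, and for Mxd1 by 1455104_at, by 0.02 to 0.37. For the brighter Mxi1 probe set it did so in 4 of 5 groups, by up to 0.18, against a span of 1.61 over the 10 arrays.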
